A study of Homo sapiens with 18 samples.

Results

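Cytoplasmic RNA was compared between MDA-MB-231 cells carrying the SH2 hairpin against fibrillarin (gene symbol FBL) and the same cells carrying the SC hairpin, read here as the scramble control. The members are the 6 libraries that the labels give as input cytoplasmic RNA (IN) of SH2 and of SC, 3 replicates each, out of 18 libraries in the study. Of the 17017 genes in the table, 12710 had enough counts in the IN libraries to be tested. MDA-MB-231 is an established triple-negative breast carcinoma line with mesenchymal features. Every group was made by lentiviral delivery of a pLKO vector and puromycin selection, so the SC cells carry a vector and the selection too. All cells also received cycloheximide, which stalls translating ribosomes, just before lysis. The other libraries are IN of a further hairpin, SH3, and the ribosome-protected footprints (RPF) of SC, SH2 and SH3, again with 3 replicates each. Whether SH2 is the first or the second knockdown of the protocol is not given by the labels, nor whether the replicates were separate cultures or a group is a single clone. The p-values therefore measure the spread between these libraries, which may be in part technical.

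Fibrillarin sits in the nucleolus, as the catalytic protein of box C/D particles. These particles of protein and small guide RNA methylate the ribose of chosen ribosomal RNA bases and help cut the ribosomal RNA precursor, so the enzyme works at the start of ribosome production. Breast carcinoma cells that divide fast need many ribosomes, and nucleolar proteins are often abundant in them. Levels below are edgeR's CPM, which are read counts as a share of the library total after TMM scaling, a step that makes libraries comparable. They are relative to the rest of the cytoplasmic RNA and are not corrected for gene length, so they compare libraries and not genes. In bulk libraries, fewer cells in a given state and less RNA per cell cannot be told apart.

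Total counts ran from 24430219 to 27629488 over the 6 libraries, with 14604 to 14963 genes seen in each. The first principal component of the 9 IN libraries took 56.3% of the variance and put SC on one side and both hairpins on the other. The second took 24.5% and set SH2 apart from SH3, with SC between them. SC replicate 1 stands apart from the other SC libraries. Its 10 most abundant genes held 12.3% of its counts, against 8.44% and 8.98% in the other SC libraries and 6.05% to 6.07% in SH2. Those genes include mitochondrially encoded mRNAs, so the median RNA change of these mRNAs is given with and without it. Markers of the line were present: 6175, 4965 and 5598 CPM in SC and 6173, 6346 and 7223 CPM in SH2 for VIM (vimentin), and 404, 289 and 256 CPM in SC and 556, 510.2 and 454 CPM in SH2 for CD44, a hyaluronan receptor typical of this line. The estrogen and progesterone receptor genes ESR1 and PGR and the epithelial cadherin CDH1 were below the count filter. Other luminal markers, mostly the keratin KRT19, were detected, with 5 of 8 genes of that list tested and a summed level of 436.6 to 622.4 CPM in SC and 398 to 513.2 CPM in SH2. Markers of other cell types were near 0: the leukocyte and endothelial list summed to 6.57 to 8.78 CPM in SC and 7.11 to 9.53 CPM in SH2, with CD3E, CDH5 and VWF below the filter.

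FBL itself was at 395, 349 and 421 CPM in SC and 1.26, 4.52 and 11.2 CPM in SH2 (log2 change -6.08, SE 0.45, edgeR adjusted p 1.44e-07). All SC libraries lie far above all SH2 libraries, and SH2 replicate 1 is the lowest. The paralog FBLL1 was too low to be tested.

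The SH2 hairpin went with a broad change of the cytoplasmic RNA. Of the 12710 genes tested, 7805 were called (adjusted p under 0.05 in edgeR's quasi-likelihood test), which is 61.4% of them. The calls split into 3947 higher (31.1%) and 3858 lower (30.4%). For 7407 called genes (58.3%) all SH2 libraries lay on one side of all SC libraries in CPM. Most changes were modest: the median size among called genes was 0.72 on the log2 scale. Changes of at least 2-fold were called for 1091 genes higher (8.58%) and 1245 lower (9.8%), and changes of at least 4-fold for 171 higher and 164 lower. The median log2 change of all genes tested was 0.01. With so many genes called, the counts for each gene group below are to be read against these shares. With genes split into 4 equal bins by abundance, 50.2% were called in the lowest bin and 64% to 65.7% in the others.

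**Figure D1:**
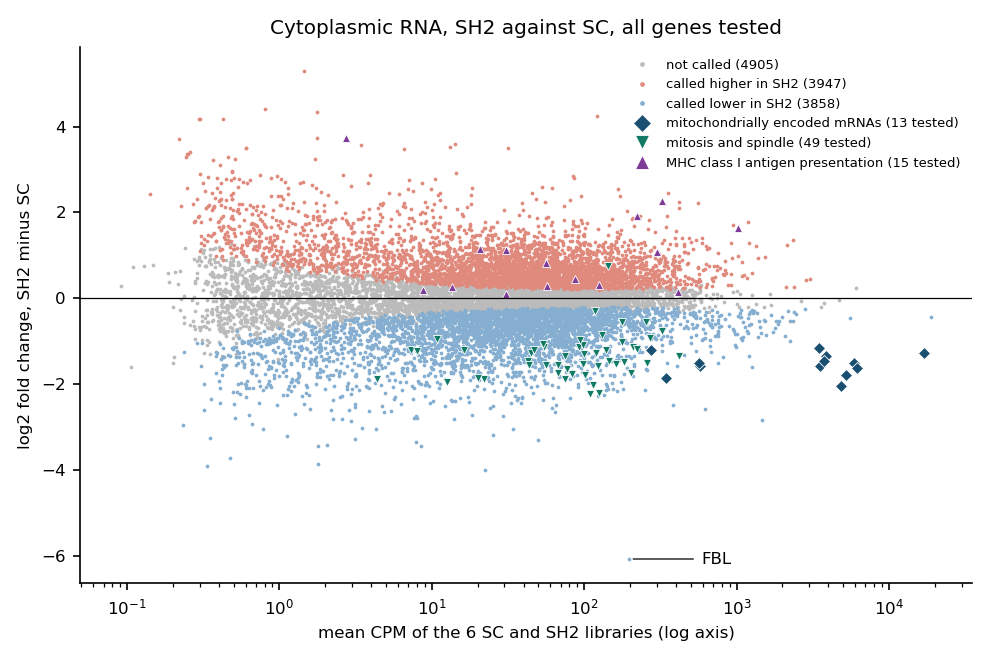
Log2 change of SH2 against SC (vertical axis) plotted against the mean level of the 6 libraries (horizontal axis, CPM on a log scale) for the 12710 genes tested, 1 point per gene, with called genes coloured by direction and 3 gene lists marked. Rises and falls are about equal in number (3947 and 3858), FBL is the lowest point, and the 13 mitochondrially encoded mRNAs lie at the right below 0.

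Genes of mitosis fell almost without exception. Of 49 mitosis and spindle genes tested, 48 fell, 40 of them by at least 2-fold, and 1 rose, with a median log2 change of -1.34 against 0.01 over all genes. Their summed level was 6322 to 8781 CPM in SC and 3035 to 3731 CPM in SH2, with no overlap. PLK1, the kinase that drives entry into and exit from mitosis, was at 139, 203 and 203 CPM in SC and 37.7, 31.5 and 46.4 CPM in SH2 (log2 change -2.23, SE 0.18, edgeR adjusted p 2.78e-07). NCAPG, a condensin subunit that compacts chromosomes, was at 169.6, 237 and 214 CPM in SC and 48.3, 43.6 and 41.5 CPM in SH2 (log2 change -2.22, SE 0.17). KIF20B, a kinesin of the cytokinetic bridge, was at 156, 209 and 189 CPM in SC and 45.3, 49 and 40.8 CPM in SH2 (log2 change -2.04, SE 0.14). In each of these 3 genes every SH2 library lies below every SC library, and SC replicate 1 is not the highest. The falls took in regulators, kinetochore genes and motor proteins alike. Among the regulators, CDK1, the mitotic cyclin-dependent kinase, changed by -1.80 on the log2 scale, its partner CCNB1 by -1.15 and CCNB2 by -1.75. Among the kinetochore and checkpoint genes, CENPA (the centromeric histone) changed by -1.96, MAD2L1 by -1.88 and BUB1 by -1.27. FOXM1, a transcription factor of mitotic genes, changed by -1.49, and MKI67, the gene of the proliferation antigen Ki-67, by -1.50. CDC20, the activator of the anaphase-promoting complex, fell less (-0.94). The exception was CDC25B, a phosphatase that activates CDK1, which rose from 108 ± 22.3 CPM in SC to 181 ± 22.9 CPM in SH2 (SD, n = 3 each). SKA1, which couples kinetochores to microtubules and is no member of the list, fell from 24.5 ± 1.31 CPM in SC to 3.45 ± 0.301 CPM in SH2 (log2 change -2.82).

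DNA replication genes moved the same way. Of 42 genes of DNA replication and nucleotide supply, 40 fell, 21 by at least 2-fold, none rose and 2 (POLA1 and FEN1) were not called. The median log2 change was -1.0. GINS1, a subunit of the replicative helicase, was at 21.3, 24.7 and 25.2 CPM in SC and 3.96, 4.4 and 5.23 CPM in SH2 (log2 change -2.39, SE 0.15, edgeR adjusted p 2.91e-08). RRM2, the regulated subunit of ribonucleotide reductase, was at 225, 217 and 228 CPM in SC and 50.3, 41.6 and 49.1 CPM in SH2 (log2 change -2.25, SE 0.13). POLE2, a subunit of the leading-strand polymerase, was at 42.9, 54.1 and 48.2 CPM in SC and 11.8, 10.0 and 9.25 CPM in SH2 (log2 change -2.22, SE 0.13). The SH2 libraries of all 3 genes lie well below the SC libraries. All members of the MCM2 to MCM7 helicase ring fell, but unequally. MCM7 changed by -2.13 (SE 0.14), MCM6 by -0.98, MCM2 by -0.97, MCM4 by -0.88, MCM5 by -0.60 and MCM3 by -0.56. The enzymes of thymidylate supply fell as well: TYMS from 291 to 93.5 CPM and TK1 from 114 to 42.8 CPM (group means). The subunits of the single-strand binding protein moved less, with -0.34 for RPA1, -0.36 for RPA2 and -0.53 for RPA3.

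Since these genes moved together, the bases before their start sites were read from RefSeq's human promoters (GRCh38.p14, 250 bases before the first listed start of each gene) and searched on both strands. Many mitotic promoters are known to hold pairs of CCAAT boxes and the element TTTGAA, while replication genes are known for E2F sites. Of the 12710 genes tested, 10300 had a promoter in the table. CCAAT stood in 30 of 41 promoters found for the mitosis list (73.2%), against 35.3% of all 10300. TTTGAA stood in 21 of the 41 (51.2%, against 8.46%), and both in 17 (41.5%, against 3.49%). An E2F site, searched as TTTGGCGC, TTTGCCGC, TTTCGCGC or TTTCCCGC, stood in 2 of them (4.88%, against 4.5%). In the replication list, CCAAT stood in 20 of 35 promoters (57.1%), an E2F site in 13 (37.1%) and TTTGAA in 1 (2.86%). A match describes the letters in the window and is not a measured binding site. These shares describe the lists and bear on no test of the RNA change. The windows below, for 3 mitotic genes and 2 replication genes that fell, show in capitals the matches on either strand to CCAAT and TTTGAA (mitotic genes) or to CCAAT and the E2F site (replication genes). In PLK1 and CCNB2 alike TTTGAA begins 29 bases before the start, and CCNB2 holds 3 CCAAT boxes, at 120, 87 and 54 bases before it. MCM6 holds 2 pairs of overlapping E2F matches on opposite strands, the pairs beginning 152 and 90 bases before the start. They are PLK1 at chr16:23678739-23678888 (forward strand), CDC20 at chr1:43358831-43358980 (forward strand), CCNB2 at chr15:59104996-59105145 (forward strand), MCM6 at chr2:135876444-135876613 (reverse strand) and MCM7 at chr7:100101398-100101597 (reverse strand), each written 5′ to 3′ along the gene's strand.
PLK1: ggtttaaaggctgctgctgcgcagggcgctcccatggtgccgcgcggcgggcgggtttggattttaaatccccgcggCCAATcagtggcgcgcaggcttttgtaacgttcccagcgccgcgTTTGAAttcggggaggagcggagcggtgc
CDC20: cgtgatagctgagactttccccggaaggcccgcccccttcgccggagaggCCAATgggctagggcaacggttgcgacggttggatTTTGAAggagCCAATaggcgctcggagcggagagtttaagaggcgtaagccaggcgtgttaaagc
CCNB2: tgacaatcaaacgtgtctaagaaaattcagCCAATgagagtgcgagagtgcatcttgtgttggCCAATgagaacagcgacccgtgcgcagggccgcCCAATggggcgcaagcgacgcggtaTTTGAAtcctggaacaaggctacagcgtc
MCM6: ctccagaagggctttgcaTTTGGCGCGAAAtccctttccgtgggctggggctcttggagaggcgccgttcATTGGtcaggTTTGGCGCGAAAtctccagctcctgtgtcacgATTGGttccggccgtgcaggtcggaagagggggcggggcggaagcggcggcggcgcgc
MCM7: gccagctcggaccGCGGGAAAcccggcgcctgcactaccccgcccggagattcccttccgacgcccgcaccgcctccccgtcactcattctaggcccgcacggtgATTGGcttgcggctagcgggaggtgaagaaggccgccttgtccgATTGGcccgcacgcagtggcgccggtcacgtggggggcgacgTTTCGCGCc

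The regulators of G1 and S phase did not move as a block. Of 23 tested, 8 rose and 12 fell, with a median of -0.28. CCNE2, the S-phase cyclin E2, fell from 41.3 ± 4.37 CPM in SC to 6.99 ± 0.841 CPM in SH2 (SD, n = 3 each; log2 change -2.56, SE 0.14). E2F8 (-1.63), E2F2 (-1.56), CDK2 (-1.35) and E2F1 (-1.09) fell too, and so did the pocket protein genes RBL2 (-1.33), RBL1 (-1.04) and RB1 (-0.72). CDK6, the G1 kinase, moved the opposite way: it was at 24.6, 32.4 and 25.5 CPM in SC and 125, 136 and 139 CPM in SH2 (log2 change 2.28, SE 0.11, edgeR adjusted p 1.37e-08). Each SH2 library of CDK6 exceeds each SC library several times over. The inhibitors of these kinases rose with it, CDKN1A (p21) at 52.3, 36.6 and 42.5 CPM in SC and 122, 111 and 133 CPM in SH2, with log2 changes of 1.48 for CDKN1A, 1.57 for CDKN1B (p27) and 1.69 for CDKN1C (p57). CCND1, cyclin D1, fell (-0.95), while CCND3 (0.39) and MYC (0.72) rose.

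Of 12 BCL2 family genes 5 rose and 1 fell. BMF, a BH3-only gene that promotes cell death, rose from 2.49 ± 1.38 CPM in SC to 10.8 ± 1.73 CPM in SH2 (log2 change 2.12), while of the survival genes MCL1 rose by 0.59 and BCL2L1 fell by 0.44 on the log2 scale. The counts of this list moved with single libraries, to 3 higher and 2 lower without SC replicate 2, 3 and 1 without SC replicate 3 and 4 and 3 without SH2 replicate 3, and were 6 and 3 with the replicate numbers as a block.

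**Figure D2:**
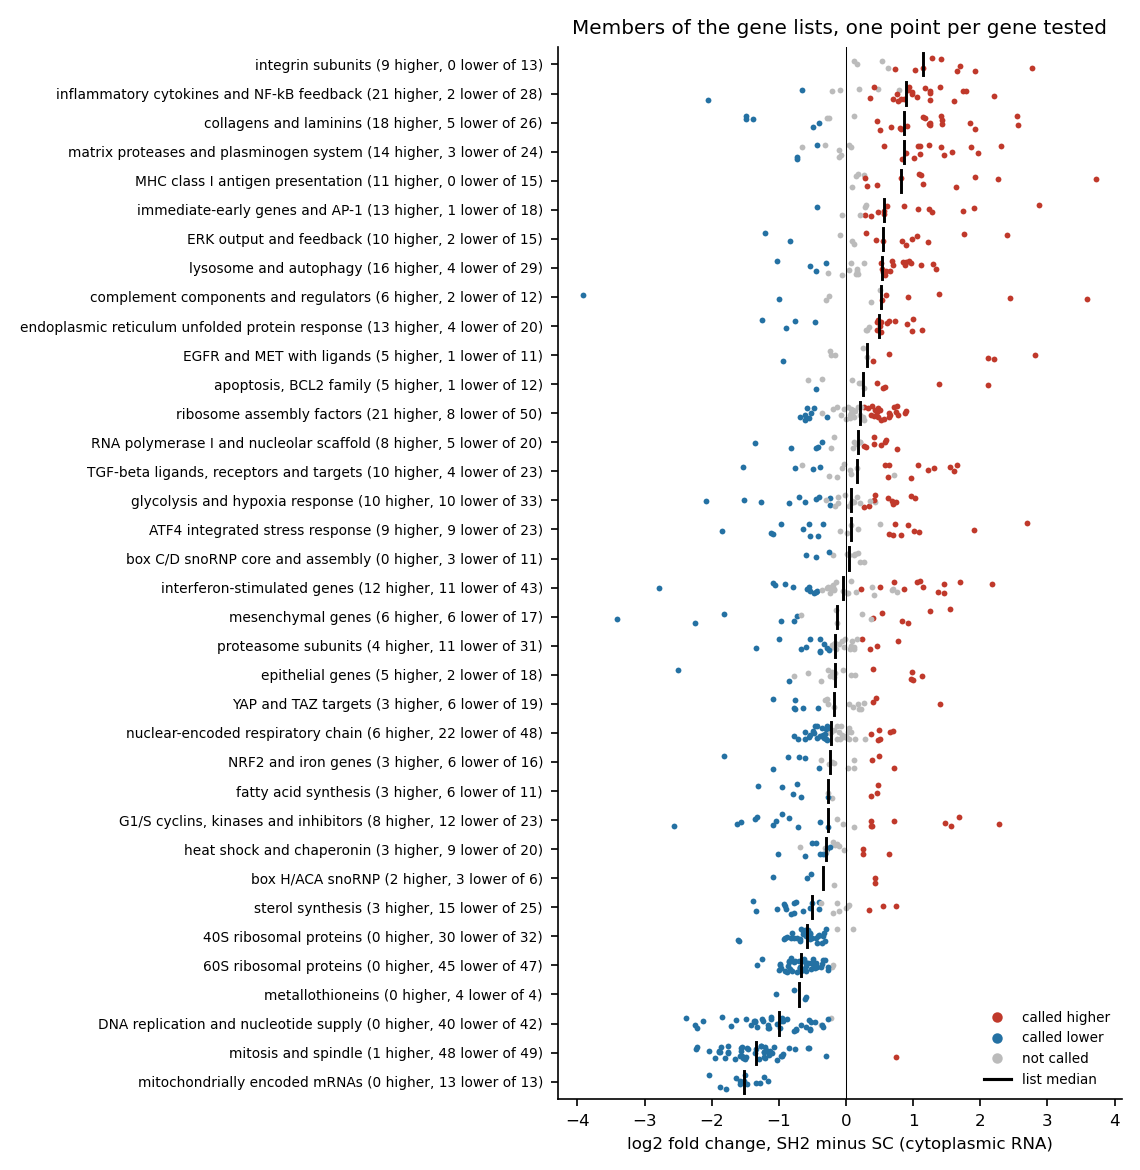
Log2 changes of SH2 against SC (horizontal axis) for the tested members of the gene lists (one row per list), each point 1 gene and the bar its list's median. The mitosis, replication and mitochondrially encoded lists lie almost wholly below 0, while the integrin and class I antigen presentation lists lie above 0.

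All 13 mitochondrially encoded mRNAs fell, each by at least 2-fold with all libraries in the fit. They encode core subunits of the respiratory chain and are made inside the organelle by its own polymerase. The values are levels in cytoplasmic lysates, and how much of the organelle each lysate held was not tested. Their summed level was 64200 to 115400 CPM in SC and 24780 to 32340 CPM in SH2. MT-CO1, subunit 1 of cytochrome c oxidase and the most abundant of them, was at 32532, 18939 and 20331 CPM in SC and 9218, 11926 and 8452 CPM in SH2 (log2 change -1.28, SE 0.19, edgeR adjusted p 5.62e-05). MT-ND2, a complex I subunit with the largest fall, was at 11479, 5927 and 5904 CPM in SC and 2131, 1941 and 1572 CPM in SH2 (log2 change -2.05, SE 0.23). SC replicate 1 is the highest library for MT-CO1, and the SH2 libraries lie below the other SC libraries as well. The median log2 change was -1.52, and -1.14 without SC replicate 1, when all 13 were still called lower. How many of them then fell by at least 2-fold was not counted. Since these mRNAs hold several percent of all counts, the genes were also tested with the 13 left out of the table before scaling, an alternative chosen after seeing the data: 7800 genes were then called, 3818 higher and 3982 lower.

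Respiratory chain genes encoded in the nucleus moved less. Of 48 tested, 6 rose and 22 fell, none by 2-fold, with a median of -0.22. The largest falls were ATP5PF (-0.78) and NDUFA9 (-0.72), a subunit each of ATP synthase and complex I. ATP5F1B, the catalytic beta subunit of ATP synthase, rose from 595 to 969 CPM (log2 change 0.70) and COX5B by 0.65.

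Ribosomal protein mRNAs fell, by less than the cell-cycle genes. Of 32 genes of the small subunit 30 fell and of 47 of the large subunit 45 fell, and none rose, with medians of -0.57 and -0.68. The largest falls were RPS3A, at 1865, 1796 and 2094 CPM in SC and 582, 711 and 587 CPM in SH2 (log2 change -1.61), RPS27 (-1.59), RPL38 (-1.33) and RPL29 (-1.25). These genes have many pseudogene copies, and how reads that match several places were counted is not given in the sources used here, so single values are uncertain. EEF1A1, the elongation factor that brings aminoacyl-tRNA to the ribosome and one of the most abundant mRNAs, was at 21621, 19839.7 and 24365 CPM in SC and 16572, 15755 and 16125 CPM in SH2 (log2 change -0.44).

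The partners of fibrillarin hardly moved. Of 11 core and assembly proteins of the box C/D particle, none rose and 3 fell: ZNHIT6 (-0.59) and PIH1D1 (-0.45), both assembly factors, and SNU13 (-0.25), which binds the guide RNA first. SNU13 lost its call with plain library totals, without SC replicate 1, without SC replicate 3 and at an adjusted p under 0.01. With the replicate block or plain totals 2 of the 11 were called higher, and the median was 0.045 (-0.017 without SC replicate 1). The other core proteins were not called, with NOP56 at 292, 305 and 325 CPM in SC and 345, 351 and 374 CPM in SH2 and NOP58 at 106, 116 and 121 CPM in SC and 85.9, 116.6 and 98 CPM in SH2. In the sister particles of the box H/ACA class, which make pseudouridine, the small core proteins GAR1 (-1.09), NOP10 (-0.58) and NHP2 (-0.52) fell, while the enzyme DKC1 (0.43) and the assembly factor SHQ1 (0.43) rose. Among 20 genes of RNA polymerase I and the nucleolar scaffold 8 rose and 5 fell, or 6 and 7 without SH2 replicate 2. NPM1, nucleophosmin of the outer nucleolus, fell most, at 1649.5, 1725 and 1811 CPM in SC and 504, 864 and 661 CPM in SH2 (log2 change -1.35, SE 0.15, edgeR adjusted p 5.06e-06). The polymerase subunits moved in both directions. The catalytic subunits rose slightly, POLR1A by 0.52 and POLR1B by 0.59, and POLR1H rose by 0.75. POLR1F (-0.82) and POLR1G (-0.45) fell. Ribosome assembly factors leaned upward: of 50 tested 21 rose and 8 fell, none by 2-fold, with a median of 0.21. NMD3, the export adaptor of the large subunit, rose from 53.5 to 99.3 CPM (log2 change 0.89), and RRP9, a protein of the U3 particle, from 75.2 to 139 CPM (0.88). NSA2 (-0.68), LSG1 (-0.61), NIP7 (-0.60) and MDN1 (-0.58) fell.

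Genes of class I antigen presentation rose. This pathway cuts cytosolic proteins in the proteasome, moves the peptides into the endoplasmic reticulum and shows them on class I molecules to cytotoxic T cells. Of 15 genes tested 11 rose, 7 by at least 2-fold, and none fell, with a median of 0.82. HLA-B, a classical heavy chain, was at 107, 128 and 97.2 CPM in SC and 645, 448 and 507 CPM in SH2 (log2 change 2.27, SE 0.15, edgeR adjusted p 4.60e-08). HLA-C was at 95.4, 101 and 80.2 CPM in SC and 401, 289 and 360.2 CPM in SH2 (log2 change 1.92, SE 0.13). For both heavy chains the lowest SH2 library stands well above the highest SC library. HLA-F, a heavy chain of the nonclassical kind, rose from 0.377 ± 0.185 CPM in SC to 5.07 ± 1.15 CPM in SH2 (SD, n = 3 each; log2 change 3.73), from a level close to the filter. These genes are near-identical to each other over long stretches, so counts may be shared between them. The light chain B2M did not follow: it was at 423, 390.1 and 364 CPM in SC and 490.3, 445 and 369.7 CPM in SH2 and was not called (log2 change 0.15, edgeR adjusted p 0.265). The peptide transporter rose little, TAP1 by 0.46 with overlapping libraries, and TAP2 was not called (0.27). The loading chaperone TAPBP (tapasin) rose from 193 to 408 CPM (1.08), the trimming peptidase ERAP1 by 0.82, and the immunoproteasome subunits PSMB9 by 1.12, PSMB10 by 1.15 and PSMB8 by 0.28. NLRC5, the activator of class I genes, was not called, with 27.2, 32.2 and 29.6 CPM in SC and 34, 27.6 and 33.1 CPM in SH2.

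The promoters of class I genes are known for interferon-response and kappa B elements. GAAANNGAAA, the core of the interferon-response element, stood in 6 of 12 promoters found for the list (50%, against 2.41% of all 10300), and the kappa B consensus in 6 (50%, against 5.99%). The windows of 2 heavy chains that rose are shown beside those of B2M, which was not called, and TAP1, which rose little, with matches to GAAANNGAAA and kappa B on either strand in capitals. HLA-B holds overlapping kappa B matches and HLA-F 1 match to GAAANNGAAA, while B2M and TAP1 hold both kinds. Letters that differ from these patterns were not counted, so a window without a match may still hold a variant of the element. They are HLA-F at chr6:29723234-29723433 (forward strand), HLA-B at chr6:31357180-31357379 (reverse strand), B2M at chr15:44711337-44711516 (forward strand) and TAP1 at chr6:32853705-32853884 (reverse strand) on GRCh38.p14.
HLA-F: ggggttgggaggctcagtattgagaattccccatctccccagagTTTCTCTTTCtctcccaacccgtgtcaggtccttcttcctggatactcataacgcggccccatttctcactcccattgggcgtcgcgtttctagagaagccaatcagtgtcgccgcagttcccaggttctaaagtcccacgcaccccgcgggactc
HLA-B: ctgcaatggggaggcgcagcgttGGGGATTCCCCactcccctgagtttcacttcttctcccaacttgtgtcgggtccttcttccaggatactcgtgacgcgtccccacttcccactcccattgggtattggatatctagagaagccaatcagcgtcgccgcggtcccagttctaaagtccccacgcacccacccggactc
B2M: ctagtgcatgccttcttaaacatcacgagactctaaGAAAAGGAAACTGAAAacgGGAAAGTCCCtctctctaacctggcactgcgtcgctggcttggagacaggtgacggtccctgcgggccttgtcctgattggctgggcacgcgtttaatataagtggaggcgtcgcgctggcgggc
TAP1: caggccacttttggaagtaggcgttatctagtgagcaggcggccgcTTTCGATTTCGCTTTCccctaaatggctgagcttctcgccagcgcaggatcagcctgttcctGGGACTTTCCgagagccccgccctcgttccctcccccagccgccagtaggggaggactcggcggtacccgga

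**Figure D3:**
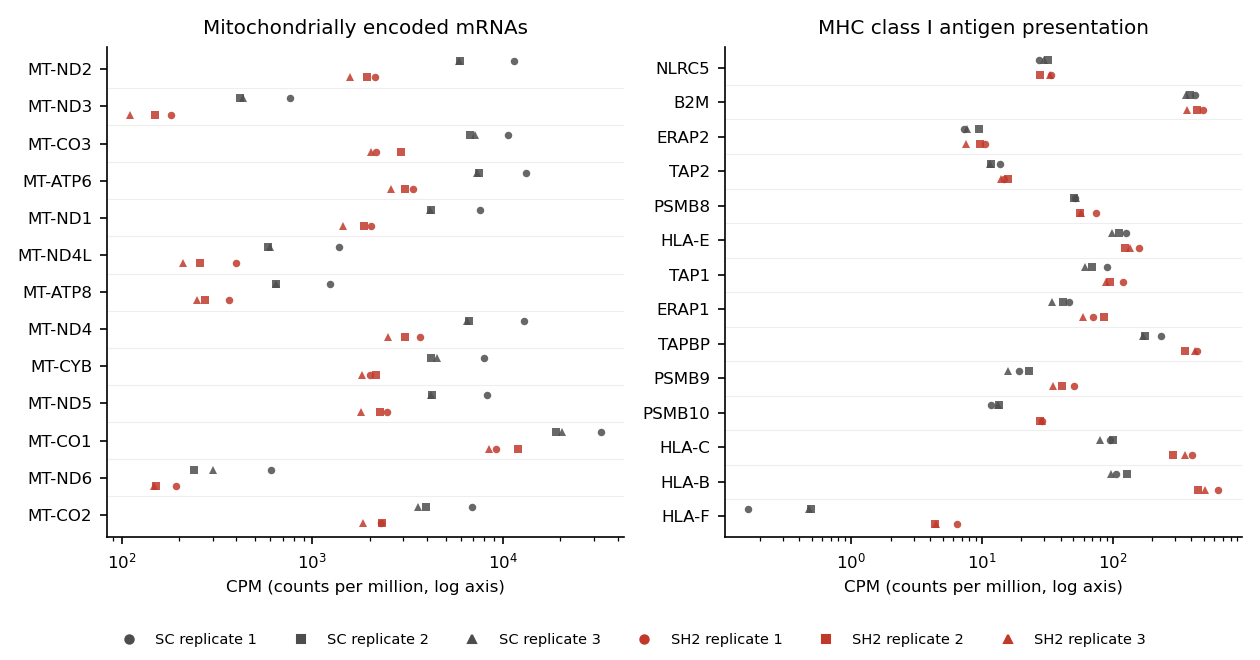
Level in each SC and SH2 library (horizontal axis, CPM on a log scale) of the 13 mitochondrially encoded mRNAs and of class I antigen presentation genes, 1 row per gene and 1 point per library. The SH2 points lie below all SC points for the mitochondrial mRNAs and above all SC points for HLA-B and HLA-C.

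Interferon-stimulated genes moved in both directions. Of 43 tested 12 rose and 11 fell, with a median of -0.05. Of them 8 rose by at least 2-fold and 3 fell by as much. The falls numbered 7 without SC replicate 2, and the median was 0.036 with plain library totals. In footprints 12 of 36 rose and 8 fell, with a median of 0.17. IRF1, a transcription factor of class I genes, rose from 28.5 ± 4.08 CPM in SC to 92.4 ± 3.65 CPM in SH2 (SD, n = 3 each; log2 change 1.70). RSAD2 (2.18) and OAS1 (1.46), both antiviral enzymes, rose from low levels. IFITM1, a membrane protein that blocks virus entry, fell most, at 15.5, 12.2 and 12.7 CPM in SC and 2.27, 1.77 and 1.78 CPM in SH2 (log2 change -2.79, SE 0.19, edgeR adjusted p 8.04e-08), followed by IFITM2 (-1.09) and IFI6 (-1.05). ISG15 (-0.28) and MX1 (0.026) were not called.

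Cytokine and NF-kB feedback genes rose. Of 28 tested 21 rose, 10 by at least 2-fold, and 2 fell, with a median of 0.89. BIRC3, an inhibitor of apoptosis that NF-kB induces, was at 42.2, 46.8 and 24.7 CPM in SC and 144, 163 and 88.1 CPM in SH2 (log2 change 1.79, SE 0.24, edgeR adjusted p 2.08e-05). RELB, the subunit of the noncanonical pathway, was at 48.2, 36.1 and 33.1 CPM in SC and 132, 134 and 126 CPM in SH2 (log2 change 1.74, SE 0.13), and its partner NFKB2 rose by 1.25. The SH2 libraries of both exceed all SC libraries. The other subunits rose less, RELA by 0.70 and NFKB1 by 0.36, and REL was not called (-0.21). The inhibitors NFKBIE (1.26), TNFAIP3 (0.93) and NFKBIA (0.78) rose. Among secreted factors, CCL20 (2.20) and CXCL1 (1.61) rose from under 3 CPM, IL1B from 15 to 39.6 CPM (1.41) and CSF1 from 62.5 to 149 CPM (1.25). IL11, a cytokine of the IL6 family linked to bone metastasis, moved against them, at 94, 67.3 and 74.2 CPM in SC and 14.9, 21.4 and 20.6 CPM in SH2 (log2 change -2.05, SE 0.17, edgeR adjusted p 3.68e-07). The kappa B consensus stood in 12 of 22 promoters found for this list (54.5%, against 5.99% of all promoters).

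Of 12 complement genes tested 6 rose and 2 fell. C3, the central component, rose from 2.19 ± 0.243 CPM in SC to 26.3 ± 6.69 CPM in SH2 (log2 change 3.59), CLU, the chaperone clusterin, from 14.1 ± 1.92 CPM in SC to 76.6 ± 9.24 CPM in SH2 (2.45), and CFB by 1.39 from a low level. The membrane regulators split: CD46 fell from 104 ± 28.7 CPM in SC to 51.8 ± 9.69 CPM in SH2 (-1.0), CD59 rose by 0.59, and CD55 was not called (-0.25). The largest change of the list was the fall of SERPING1, the inhibitor of the first complement component, at 0.694, 0.494 and 0.708 CPM in SC and 0.0392, 0.0376 and 0.0356 CPM in SH2 (log2 change -3.91, SE 0.64). Each SH2 library held 1 read of it, so the size of its fall is imprecise.

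Adhesion genes rose. Integrins are paired receptors that tie the cell to its matrix. Of 13 subunits tested 9 rose, 8 by at least 2-fold, and none fell, with a median of 1.15. ITGA3, a laminin receptor chain, was at 442, 482 and 418 CPM in SC and 1407, 1371 and 1563 CPM in SH2 (log2 change 1.69, SE 0.095, edgeR adjusted p 1.91e-08). ITGA5, the fibronectin receptor chain, was at 223, 147 and 126 CPM in SC and 665, 424 and 479 CPM in SH2 (log2 change 1.66, SE 0.21). ITGA2, a collagen receptor chain, was at 420.0, 330.0 and 284 CPM in SC and 840.3, 1009 and 653 CPM in SH2 (log2 change 1.27, SE 0.16). ITGA10 rose from 1.81 to 12.3 CPM (2.76). The libraries of the 2 groups do not overlap in any of these. Among beta chains ITGB4 rose (1.15), while ITGB1, the common partner of the alpha chains above, was not called, with 1194, 894 and 782 CPM in SC and 1121, 1187 and 895 CPM in SH2.

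Matrix genes leaned the same way with clear exceptions. Of 26 collagens and laminins 18 rose, 12 by at least 2-fold, and 5 fell, with a median of 0.86. COL6A1, a chain of the microfibrillar collagen VI, was at 54.5, 53.9 and 38.4 CPM in SC and 238, 312 and 306 CPM in SH2 (log2 change 2.54, SE 0.15, edgeR adjusted p 2.67e-08). COL6A2 rose too (1.24), but the third chain, COL6A3, fell (-0.49). COL5A1 rose by 1.85 and COL7A1 by 1.43. Laminin 332, the anchor of epithelial cells, also split by chain: LAMB3 was at 524, 336 and 341 CPM in SC and 1154, 701 and 795 CPM in SH2 (1.14 on the log2 scale), while LAMA3 was at 45.7, 50.8 and 43.5 CPM in SC and 13.1, 21.6 and 14.9 CPM in SH2 (-1.50). Chains of 1 trimer thus moved in opposite directions, with non-overlapping libraries on both sides. COL12A1 (-1.49) and COL8A1 (-1.39) fell.

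Of 24 matrix proteases, their inhibitors and plasminogen genes 14 rose and 3 fell, with a median of 0.86. MMP14, the membrane collagenase of invading cells, was at 334, 243 and 225 CPM in SC and 784, 658 and 691 CPM in SH2 (log2 change 1.41, SE 0.16, edgeR adjusted p 5.76e-06). SERPINB2, an inhibitor of plasminogen activators, rose from 16.2 ± 9.85 CPM in SC to 80.0 ± 21.7 CPM in SH2 (log2 change 2.31). The plasminogen activators split, with PLAT higher (1.23) and PLAU lower (-0.73), and the receptor PLAUR rose (1.10). MMP1, abundant in this line, was not called, with 967, 162 and 212 CPM in SC and 528, 541 and 347 CPM in SH2. SC replicate 1 is far above the other SC libraries there, and it is also the highest SC library for MMP14, as for ITGA5 above. The tissue inhibitors TIMP2 (1.08), TIMP3 (0.83) and TIMP1 (0.57) rose as well. The count of falls was 1 without SC replicate 1, SH2 replicate 2 or SH2 replicate 3, and 5 without SC replicate 2 or with the replicate block.

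Of 23 genes of TGF-beta signalling 10 rose and 4 fell. The receptor TGFBR2 was at 319, 282 and 289.8 CPM in SC and 531, 692 and 654 CPM in SH2 (log2 change 1.08), the signal transducer SMAD3 rose by 0.97, and the feedback genes SMAD7 and PMEPA1 by 1.65 and 1.55. The ligand TGFB1 was not called (0.066), and TGFB2 fell (-0.76). Of 17 mesenchymal genes 6 rose and 6 fell (3 rose without SH2 replicate 2): CDH2, N-cadherin, fell from 3.78 ± 2.77 CPM in SC to 0.354 ± 0.149 CPM in SH2 (log2 change -3.41), AXL fell by 0.77 on the log2 scale, and the collagen cross-linker LOXL2 rose from 148 to 434 CPM (1.55). Of 18 epithelial genes 5 rose and 2 fell, or 4 with the replicate block or without SC replicate 2. OCLN, the tight junction protein occludin, was at 19.9, 23.8 and 18.5 CPM in SC and 4.08, 3.8 and 3.06 CPM in SH2 (log2 change -2.51, SE 0.16, edgeR adjusted p 3.84e-08), and the desmosomal gene JUP rose (1.13).

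EGFR, some of its ligands and most ERK output genes rose. EGFR was at 193, 225 and 174 CPM in SC and 904, 904 and 928 CPM in SH2 (log2 change 2.21, SE 0.11, edgeR adjusted p 1.35e-08). Its ligand AREG (amphiregulin) was at 18.9, 27.6 and 17.3 CPM in SC and 167, 144 and 137 CPM in SH2 (log2 change 2.81, SE 0.16), and EREG (epiregulin) was at 3.92, 8.24 and 7 CPM in SC and 17.1, 35.9 and 30.1 CPM in SH2 (log2 change 2.12, SE 0.28). All SH2 libraries of the 3 genes stand above all SC libraries. HBEGF rose less (0.65), ERBB3 fell (-0.95), and ERBB2 (-0.17), MET (-0.23) and TGFA (0.25) were not called. Over the list of 11 receptors and ligands 5 rose and 1 fell. Of 15 output and feedback genes of the ERK pathway 10 rose and 2 fell. DUSP5, a nuclear ERK phosphatase, was at 49.9, 63.2 and 50.9 CPM in SC and 299, 250.2 and 312 CPM in SH2 (log2 change 2.39, SE 0.12, edgeR adjusted p 1.37e-08). EPHA4 (1.76), SPRY4 (1.23) and EPHA2 (1.05) rose, while ETV5 (-1.20) and DUSP1 (-0.84) fell. Of 18 immediate-early and AP-1 genes 13 rose and 1 (JUND, -0.43) fell, with a median of 0.57. KLF4 was at 49.9, 47.9 and 46.5 CPM in SC and 155, 154 and 176 CPM in SH2 (log2 change 1.75), and EGR2 rose from 0.621 ± 0.172 CPM in SC to 4.57 ± 0.902 CPM in SH2 (2.87).

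Genes of lysosomes and protein folding in the endoplasmic reticulum mostly rose. Of 29 lysosome and autophagy genes 16 rose and 4 fell, with a median of 0.54. CTSD, the protease cathepsin D, was at 110.1, 135 and 102 CPM in SC and 255, 289 and 329.9 CPM in SH2 (log2 change 1.34, SE 0.12, edgeR adjusted p 6.66e-07), GRN, the granulin precursor, rose from 291 to 717 CPM (1.30), and SQSTM1, the autophagy receptor p62, from 644 to 1236 CPM (0.94). GLB1, lysosomal beta-galactosidase, fell (-1.03). The falls in this list numbered 2 with plain totals, without SC replicate 1 or without SH2 replicate 2. Of 20 genes of the unfolded protein response 13 rose and 4 fell: SYVN1, a ligase of protein degradation there, rose by 1.14 and the isomerase PDIA4 by 1.0, and EDEM1, which marks misfolded glycoproteins, fell from 130.3 ± 10.9 CPM in SC to 54.6 ± 4.42 CPM in SH2 (-1.25). HSPA5, the chaperone BiP, rose by 0.50 with overlapping libraries.

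Amino acid, sterol and redox genes moved in both directions. Of 23 genes of the ATF4 stress response 9 rose and 9 fell, with a median of 0.075 (-0.033 without SH2 replicate 3). The serine pathway fell at its enzymes: PHGDH, which commits glucose carbon to serine, was at 56.7, 70.2 and 82.5 CPM in SC and 19.1, 15.8 and 23.5 CPM in SH2 (log2 change -1.84, SE 0.16, edgeR adjusted p 5.62e-07), PSAT1 changed by -0.97 and PSPH by -1.12. SLC7A5 fell (-1.09) and its heavy chain SLC3A2 rose (1.09), so both parts of this amino acid exchanger moved apart. STC2, a secreted glycoprotein, had the largest change of the list, a rise, with 0.49, 0.33 and 0.315 CPM in SC and 1.77, 2.86 and 2.81 CPM in SH2 (log2 change 2.70). The stress genes ATF3 (1.90) and TRIB3 (1.01) rose. Of 25 sterol synthesis genes 15 fell and 3 rose, with a median of -0.51. ACAT2, the first enzyme of the pathway, was at 96.1, 107 and 113 CPM in SC and 39.1, 40.6 and 41.8 CPM in SH2 (log2 change -1.38), MSMO1 changed by -1.35 and IDI1 by -1.03. Of 16 NRF2 and iron genes 6 fell and 3 rose, or 1 without SC replicate 3, SH2 replicate 2 or SH2 replicate 3. TXNRD1, thioredoxin reductase, was at 339, 312 and 320.2 CPM in SC and 84.4, 101 and 91.1 CPM in SH2 (log2 change -1.81, SE 0.094, edgeR adjusted p 1.39e-08), and the ferritin chains FTH1 (-1.09) and FTL (-0.87) fell together.

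The largest single rises and falls lay partly outside these lists. PRSS2, an anionic trypsinogen, was at 11.5, 13 and 12.2 CPM in SC and 162, 266 and 266 CPM in SH2 (log2 change 4.24, SE 0.18, edgeR adjusted p 5.19e-09). It has near-identical trypsinogen copies, so the source of its reads is uncertain. EPHB6, an Eph receptor with no kinase activity, was at 0.204, 0.742 and 0.629 CPM in SC and 3.45, 8.24 and 7.25 CPM in SH2 (log2 change 3.58). PPL, periplakin of the desmosome, was at 2.49, 7.99 and 4.88 CPM in SC and 48.6, 53.5 and 71.8 CPM in SH2 (log2 change 3.50). Each of these 3 genes was at least 8-fold higher in the SH2 mean, with no overlap. The other rises among the 15 largest included SLITRK6 (3.53), C17orf97 (3.49), the mechanical ion channel PIEZO2 (2.91), PI16 (2.86) and CYP1B1 (2.85). The rest were the kinase PTK2B (2.77), CYP2S1 (2.69) and ADGRF4 (2.68), besides HLA-F, C3, AREG and ITGA10 above.

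**Figure D4:**
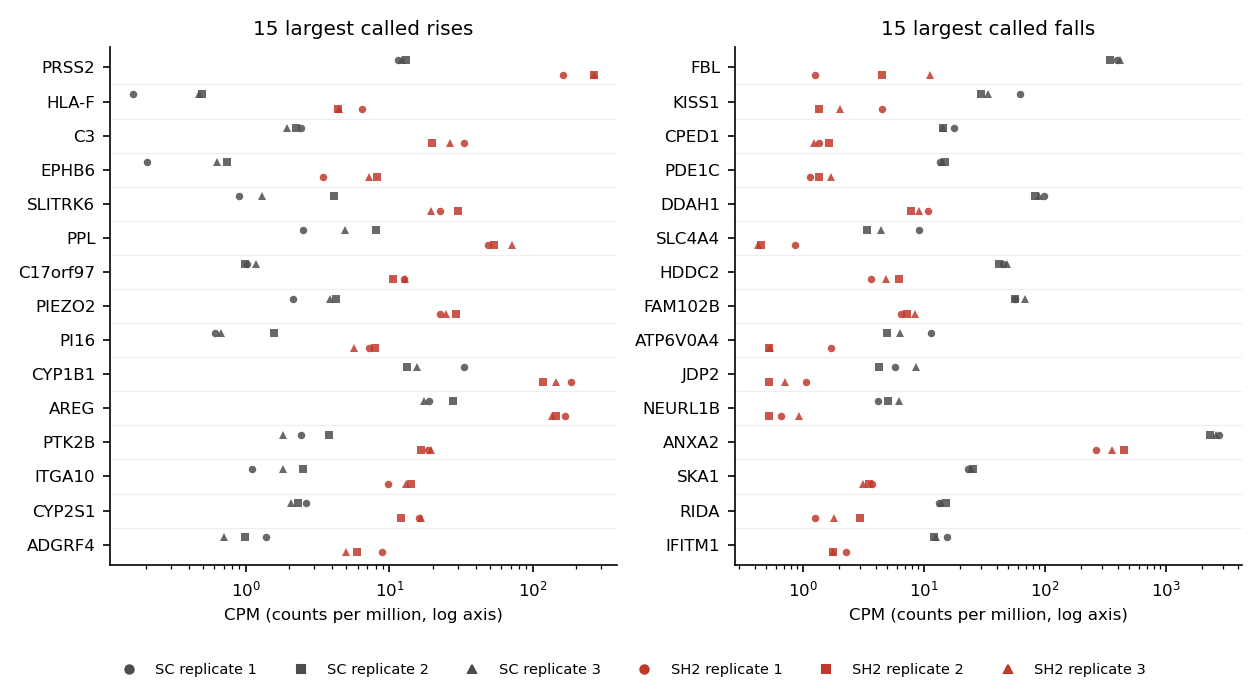
Level in each SC and SH2 library (horizontal axis, CPM on a log scale) of the 15 genes with the largest rises and the 15 with the largest falls, 1 row per gene and 1 point per library. No SH2 point crosses into the range of the SC points, since genes with overlapping libraries were left out by the rule that chose them.

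DDAH1, which breaks down inhibitors of nitric oxide synthase, was at 99.5, 83 and 90.5 CPM in SC and 10.7, 7.83 and 9.21 CPM in SH2 (log2 change -3.30, SE 0.13, edgeR adjusted p 5.19e-09). ANXA2, a membrane-binding annexin among the abundant mRNAs of these cells, was at 2758, 2331 and 2628 CPM in SC and 267, 450.4 and 363 CPM in SH2 (log2 change -2.84, SE 0.16). ANXA2 has processed pseudogenes, so its counts may be shared with them. PDE1C, a cyclic nucleotide phosphodiesterase, fell from 14.3 ± 0.725 CPM in SC to 1.4 ± 0.287 CPM in SH2 (-3.34). The other large falls, after FBL, were the metastasis suppressor KISS1 (-4.01), CPED1 (-3.44), the bicarbonate transporter SLC4A4 (-3.29), HDDC2 (-3.20), FAM102B (-3.05), the proton pump subunit ATP6V0A4 (-3.05), the AP-1 repressor JDP2 (-3.02), NEURL1B (-2.86) and RIDA (-2.80), besides SKA1 and IFITM1.

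By absolute level, the largest gains included genes of the cytoskeleton and its anchors. PLEC (plectin, a linker of filaments) rose from 1274 to 3024 CPM in the group means and MYH9 (nonmuscle myosin) from 806 to 1875 CPM. LMNA, the gene of lamins A and C, rose from 707 to 1711 CPM and CAPN2, a calcium-dependent protease, from 1036 to 2019 CPM, besides ITGA3 above. Their log2 changes were 1.25 for PLEC, 1.22 for MYH9, 1.27 for LMNA and 0.96 for CAPN2. The largest losses by level were 7 mitochondrially encoded mRNAs and EEF1A1.

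SH2 was then compared with the other hairpin, SH3, in the same fit. Both hairpins share the SC libraries, so their changes against SC are not independent and are set side by side only. Between SH2 and SH3, 4993 genes were called (39.3%), and 3563 of the genes called in SH2 against SC were among them. How the 4993 split by direction was not counted, so the list counts below have only the share in either direction beside them. FBL was at 3.36, 4.15 and 2.95 CPM in SH3. For mitosis genes the hairpins had like medians against SC (-1.34 in SH2 and -1.35 in SH3), and 3 of 49 were called higher and 5 lower in SH2 than in SH3. Replication genes were lower in SH2: 25 of 42 were called lower than in SH3 and 1 higher. MCM7 shows it most plainly, at 195, 238 and 248 CPM in SC, 41.1, 52.3 and 61.8 in SH2 and 206, 198 and 219 in SH3 (SH2 minus SH3 -2.0, edgeR adjusted p 2.16e-07). Of the 13 mitochondrial mRNAs 3 were called lower in SH2 than in SH3, and of 13 integrin subunits 6 were called higher. Of the 15 class I genes 3 were higher and 2 lower in SH2.

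The largest differences between the hairpins were the following. IL1B was at 16.1, 18.2 and 10.5 CPM in SC, 40.1, 49.3 and 29.4 in SH2 and 7.68, 3.94 and 3.64 in SH3 (SH2 minus SH3 2.96, SE 0.28, edgeR adjusted p 3.80e-06). OCLN was at 19.9, 23.8 and 18.5 CPM in SC, 4.08, 3.8 and 3.06 in SH2 and 26.4, 20.9 and 21.1 in SH3 (SH2 minus SH3 -2.65, edgeR adjusted p 8.93e-08). In IL1B the SC libraries lie between the hairpins, and in OCLN the SC and SH3 libraries lie together above SH2. CDKN1A, which was picked after its values were seen, was at 28.8, 29.3 and 26.3 CPM in SH3, below all SC libraries, while SH2 lies above them (SH2 minus SH3 2.11, edgeR adjusted p 8.93e-08). INSIG1, which holds back sterol synthesis, was at 44.4, 43.6 and 35.1 CPM in SC, 57.1, 45.6 and 53.4 in SH2 and 10.8, 12.3 and 9.16 in SH3 (SH2 minus SH3 2.27). DDAH1 was at 69.9, 59.7 and 64.1 CPM and PRSS2 at 20.2, 21.9 and 21.8 CPM in SH3, so the SH2 level stands apart from both other groups. The rule for the largest differences also gave TNFRSF11B (2.67), ARHGAP30 (2.64) and SPINK4 (2.50) as higher in SH2, and RIDA (-2.97), ZC4H2 (-2.58), HDDC2 (-2.46) and PAIP2 (-2.35) as lower.

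**Figure D5:**
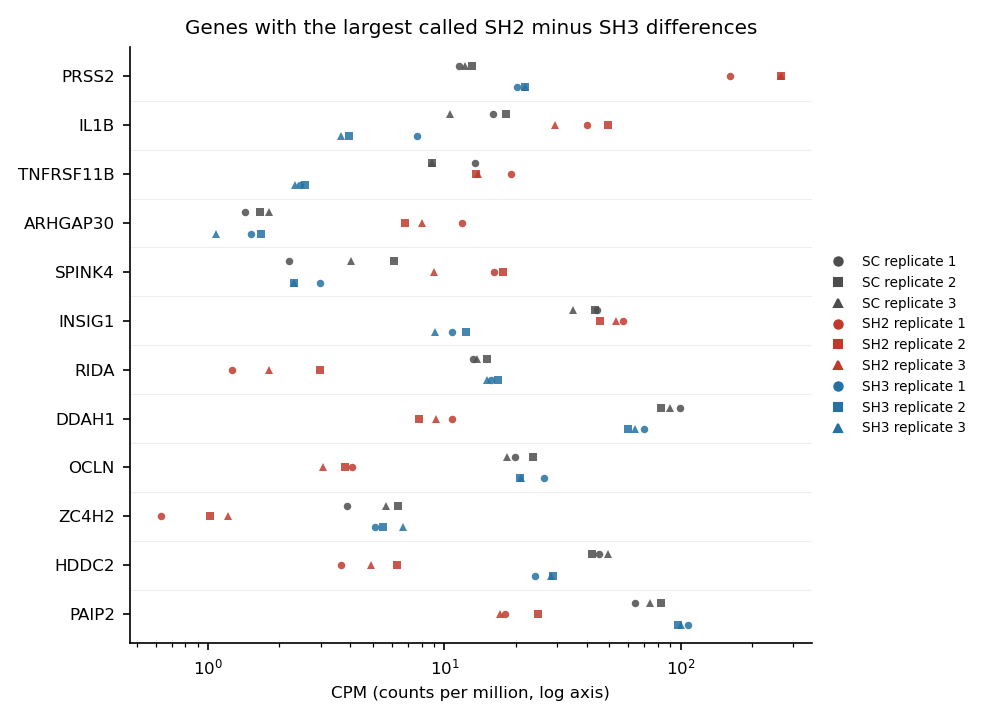
Level in each IN library (horizontal axis, CPM on a log scale) of the 12 genes that differ most between the hairpins among those called in SH2 against SC, with SC, SH2 and SH3 libraries as separate points. SH2 and SH3 points do not overlap in any of the 12 genes, which the rule that chose them required.

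The footprints, made from the same lysates per the labels, were read as a further measure of these genes. In RPF, 4576 of 10345 genes were called between SH2 and SC (44.2%). Of the genes called in RNA, 6654 were tested in RPF. Of these 3805 were called there in the same direction and 55 in the opposite one. All 13 mitochondrial mRNAs fell in footprints (median -1.76), as did 46 of 49 mitosis genes (median -1.23) and 36 of 41 replication genes (median -0.99). The mitochondrial footprint median was not taken without SC replicate 1. SC footprints of MT-CO1 varied widely, with a mean of 1235 CPM and an SD of 688 (n = 3). Class I genes (11 of 15 higher, median 1.10), integrins (9 of 12, median 1.43) and cytokine genes (16 of 24, median 0.90) rose in footprints. Of the ribosomal protein genes, 8 of 31 of the small subunit fell in footprints and 3 rose (median -0.094), and 11 of 47 of the large subunit fell and 6 rose (median -0.037).

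The difference between the footprint and the RNA change was tested in 1 fit of all 18 libraries. This main fit did not pair the RNA and footprint libraries of the same lysate. It was called for 489 of 12531 genes (3.9%). With each treatment and replicate number as a block, which pairs the RNA and footprint libraries, it was called for 191. In the unpaired fit the count was 140 without SC replicate 3, 195 without SH2 replicate 1 and 110 without SH2 replicate 3. It thus moves with single libraries. Among genes called in RNA the difference was called for 334 in the unpaired fit. EEF1A1 had a log2 change of -0.44 in RNA and 0.60 in footprints, a difference of 1.03 in the joint fit (edgeR adjusted p 0.00787). Whether the EEF1A1 call holds in the paired fit or the other alternatives was not checked. LRRC8B, a subunit of the volume-regulated anion channel, fell by 1.25 on the log2 scale in RNA and was not called in footprints (0.66, edgeR adjusted p 0.0823). DMPK, the kinase gene of myotonic dystrophy, rose by 1.399 in RNA and was not called in footprints (-0.94, edgeR adjusted p 0.0638). The dynein gene DNAH14 fell in both, with -1.04 in RNA and -3.09 in footprints. EEF1A1 and LRRC8B had their footprint change above their RNA change, and DMPK and DNAH14 below it.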

How the data were processed

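Raw read counts per gene and library were taken from 1 table deposited by the authors, which is not normalized. The submitters' processing notes name Bowtie 1.2.2 and DESeq2. The genome build, the annotation, strand handling and the treatment of reads that match several places are not given in the sources used here. The 18 normalized columns of the table and the authors' own fold changes and p-values were not used. Columns were matched to samples by treatment, replicate and library kind.

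Counts were analysed in edgeR 4.0.16 (R 4.3.3, limma 3.58.1). Low-count genes were left out by filterByExpr (minimum count 10), libraries were scaled with TMM, and differences were tested with the two-sided quasi-likelihood test with Benjamini-Hochberg adjustment over all genes tested. A gene is called at an adjusted p under 0.05. The 9 IN libraries entered 1 fit (SH2 minus SC, SH2 minus SH3), the 9 RPF libraries another, and all 18 a fit of the difference between the RPF and IN changes. SE was taken as the size of the log2 change over the root of its F value. Variation between replicates (edgeR's biological coefficient) was 11.6% for IN libraries and 15.1% for RPF libraries. The procedure was tested on simulated data in which 200 genes changed. Since 7805 genes were called in the real data, the simulation does not test scaling under so broad a change. Replicates differed by more than counting noise in all groups, so none were merged.

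SC and SH2 libraries with the same replicate number deviated together from their group means (correlations of 0.354, 0.289 and 0.293, against -0.282 to 0.019 for other numbers), so the numbers pair the libraries, as read from the data and not from the labels. The main fits have no block, and the fits with it are an alternative. In the fit of all 18 libraries the block was the treatment with the replicate number, so it pairs RNA with footprints.

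The members and the 42 gene lists were chosen with earlier results of these data known. The 2 lists of noncoding snoRNA host genes and of nuclear-retained RNAs had no tested gene. Genes are named by these rules: FBL and FBLL1. The 15 largest rises and 15 largest falls among called genes with no overlap of SH2 and SC and a mean of at least 5 CPM in the higher group. The 8 largest gains and 8 largest losses in mean CPM. In each list, the 3 largest called rises and falls. The 6 highest and 6 lowest called differences between SH2 and SH3, with no overlap and the same minimum. The 5 highest and 5 lowest called differences between the RPF and IN changes. Other list members named were chosen for their role after their values were seen. Alternatives were other scalings, no filter, DESeq2 1.42.0, only the groups compared, the replicate block, each replicate left out, stricter thresholds, and, chosen after seeing the data, the table without the 13 mitochondrially encoded mRNAs. Some items that these rules chose are not reported here.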

Additional observations from a re-analysis of the deposited data

Results flagged for a closer look

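The RNA level differed between SH2 and SH3, by the test of the difference itself, most in these genes. Higher in SH2 than in SH3 on the log2 scale were PRSS2 by 3.44, IL1B by 2.96, TNFRSF11B by 2.67, ARHGAP30 by 2.64, SPINK4 by 2.50 and INSIG1 by 2.27. Lower were RIDA at -2.97, DDAH1 at -2.80, OCLN at -2.65, ZC4H2 at -2.58, HDDC2 at -2.46 and PAIP2 at -2.35. All 3 SH2 libraries lie on one side of all 3 SH3 libraries in each of the 12 genes, as the rule that chose them required.

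The footprint change of SH2 differed from its RNA change, by the unpaired test of the difference, most in these genes. Above it were PTPRC at 4.65, COBL at 2.94, PEX26 at 2.23, LRRC8B at 1.88 and ZNF320 at 1.82. Below it were KRT79 at -3.03, DMPK at -2.38, PARP6 at -2.32, DNAH14 at -2.08 and COL5A2 at -1.90. PTPRC, a leukocyte gene, was at 1.47, 1.2 and 1.38 CPM in SC and 0.235, 0.263 and 0.498 CPM in SH2 in RNA, close to the count filter. Its footprints were near 0, with a mean of 0.0592 CPM in SC (SD 0.102, n = 3) and 0.495 CPM in SH2, and its difference was 8.02 without SC replicate 3. KRT79 had at most 6 reads in any SC RNA library (mean 0.161 CPM, against 3.38 CPM in SH2), so its difference is imprecise. Footprints of others were low too, with SC means of 0.448 CPM for COBL, 0.281 for PEX26 and 1.54 for ZNF320. Footprint means of PARP6 and COL5A2 were 2.84 and 1.66 CPM in SC and 1.25 and 0.758 CPM in SH2. Of the 10, LRRC8B, DMPK and DNAH14 kept their call in each alternative fit run, and the other 7 lost it in at least 1.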

How the results depend on the processing

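The 7805 calls of SH2 against SC in RNA became 7816 with DESeq2's size factors in edgeR, 7887 with plain totals, 7977 with no filter, 7776 with DESeq2, 7398 with only the groups compared, 8353 with the replicate block and 6893 to 7642 with 1 replicate left out. Plain totals moved the median of all genes from 0.01 to 0.10 and the share of calls that were higher from 50.6% to 58.1%. Calls of at least 2-fold numbered 2336, 1091 of them higher and 1245 lower. With 1 replicate left out, 3443 to 3757 genes were higher and 3450 to 3887 lower. Against SH3 (4993), 3726 to 5080 were called with 1 replicate left out, 3152 at an adjusted p under 0.01 and 955 at 2-fold. In footprints (4576), 3740 to 4807 were called with 1 replicate left out and 1798 at 2-fold. The difference between footprint and RNA changes (489) gave 910 with DESeq2 and 184 with only the groups compared. With treatment and replicate number as a block it gave 191. It gave 110 to 555 with 1 replicate left out, 100 at an adjusted p under 0.01 and 152 at 2-fold. The replicate block changed none of the counts over all genes for SH2 against SC, SH2 against SH3 or footprints by over 1.5 times. It moved those of the BCL2, epithelial, matrix protease and box C/D lists, given beside them. The cause was not tested. Of 244 named genes, 15 lost their call under at least 1 alternative and none reversed. Of the list medians, the epithelial one went from -0.16 to 0.017 without SC replicate 1 (-0.26 to 0.017 with 1 replicate left out), and that of the leukocyte and endothelial list from 0.32 to -0.079 with no filter, which adds genes with few counts. A further 56 of 519 values of list medians moved by over 0.1, and the box C/D, ATF4 and interferon medians, all near 0, changed sign as given beside them.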

Other observations

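Other gene groups moved in both directions. Of 33 genes of glycolysis and the hypoxia response, 10 rose and 10 fell. The glucose transporter SLC2A1 rose from 262 ± 4.05 CPM in SC to 514 ± 58.7 CPM in SH2 (SD, n = 3 each), VEGFA rose by 0.68 on the log2 scale, and ENO2 (-1.52) and PDK1 (-1.27) fell. Of these genes 17 were called higher and 2 lower in SH2 than in SH3, where 39.3% of all genes were called in either direction. The split of that share by direction was not counted. Of 11 fatty acid synthesis genes 6 fell and 3 rose: the desaturase SCD fell from 198 ± 6.25 CPM in SC to 80.2 ± 22.5 CPM in SH2, and ACLY, which makes cytosolic acetyl-CoA, rose by 0.47. Of 31 proteasome subunits 11 fell and 4 rose, with PSMA1 (-1.33) and PSMB2 (-1.0) lowest and PSMD4 (0.77) highest.

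Of 20 heat shock and chaperonin genes 9 fell and 3 rose, led by the mitochondrial pair HSPE1 (-1.01) and HSPD1 (-0.62). Without SC replicate 2 or SC replicate 3, 1 gene of this list was called higher. The metal-binding metallothioneins MT2A (-1.04), MT1E (-0.78) and MT1X (-0.59) and the zinc exporter SLC30A1 (-0.62) fell. MT1E lost its call without SC replicate 1, SH2 replicate 2 or SH2 replicate 3 and at an adjusted p under 0.01. Of 19 YAP and TAZ targets 6 fell and 3 rose: ANKRD1 fell from 279 ± 10.1 CPM in SC to 131 ± 18.9 CPM in SH2, and NT5E, the surface enzyme that makes adenosine, rose from 325 ± 35.4 CPM in SC to 857 ± 46 CPM in SH2. With plain library totals 5 of these targets rose.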
